A study of Mus musculus with 2 samples.

Results

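Neutrophils of the atherosclerotic mouse aorta were examined in 2 single-cell RNA libraries, one per group. They were chosen by measured values: cell barcodes with a UMI in at least 4 of 8 genes, S100a8, S100a9, Csf3r, Retnlg, Cxcr2, Mmp9, Hdc and Il1r2, among barcodes with at least 300 detected genes and at most 10% of UMIs from mitochondrial (mt-) genes. A UMI, or unique molecular identifier, stands for 1 captured RNA molecule. The rule found 1194 neutrophils among 68463 kept cells, 368 of 39503 for WT and 826 of 28960 for EC-iCD45KO. Both groups were ApoE-/- mice on the C57BL/6 background, which lack apolipoprotein E, and both were fed a Western diet. The EC-iCD45KO mice also carried a tamoxifen-inducible deletion of CD45, the phosphatase encoded by Ptprc, in endothelial cells. The promoter that drives the deletion, the ages, the sexes and the number of animals pooled in a library are not given in the sources used here, nor whether the WT mice received tamoxifen. Aortas were minced, digested with collagenases and Liberase and enriched with CD31 microbeads, so the share of leukocytes in a library also depends on that enrichment.

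Neutrophils are short-lived granulocytes that leave the bone marrow under the control of G-CSF and the chemokine receptors CXCR2 and CXCR4, roll and arrest on activated endothelium, and enter inflamed tissue. Their granule proteins are transcribed mostly in the marrow, while mature cells in tissue transcribe cytokines, chemokines and, when exposed to type I interferon, antiviral genes. In atherosclerosis they are known for adhesion to the arterial wall, release of S100A8/S100A9 and extracellular traps, and interleukin-1 signalling. In endothelial cells, where the deletion acts, Ptprc was at 87.3 counts per 1000000 UMIs (CPM) in WT and 19.1 CPM in EC-iCD45KO, in the direction of the labels. It was also lower in cells the deletion does not target: at 334 and 123 CPM in smooth muscle cells, 205 and 99.2 CPM in fibroblasts, and 737 and 520 CPM in monocytes, so this check is not particular to endothelium. Each group held 1 library, so no difference below has a replicate check and none was tested; every interval is a 95% interval for counting error only and says nothing of the spread between animals.

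The rule genes themselves describe how the cells were chosen and support nothing further. S100a8 and S100a9, the subunits of calprotectin, stood at 6320 and 12345 CPM in the WT library and at 6452 and 11844 CPM in EC-iCD45KO. Csf3r, the G-CSF receptor, was at 457 and 512 CPM, and Cxcr2, the receptor for the ELR chemokines, at 588 and 509 CPM, WT first. Hdc, which makes histamine, was at 1071 and 903 CPM, and Il1r2, the decoy interleukin-1 receptor, at 1783 and 1155 CPM. Retnlg, a resistin-like secreted protein, was at 519 and 947 CPM, and Mmp9, the gelatinase of the tertiary granules, at 236 and 388 CPM. The median neutrophil held 5 S100a8 UMIs and 12 S100a9 UMIs in WT and 6 and 12 in EC-iCD45KO, and the highest held 380 and 656 in WT and 476 and 736 in EC-iCD45KO. Retnlg was unevenly spread: 248 of 826 EC-iCD45KO neutrophils had a UMI of it, and 1 of them held 424 of the 2052.

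Exactly 4 rule genes were detected in 116 WT and 256 EC-iCD45KO neutrophils, and all 8 in 11 and 51. Just outside the rule, 224 WT and 559 EC-iCD45KO cells had 3 of the 8 genes. Those cells had 1173 and 918 CPM of S100a8, against 2845 and 2464 CPM in the cells with 4. Of the cells with 3 genes, 33.5% in WT and 48.8% in EC-iCD45KO had 4 or more of 8 macrophage markers, against 20.7% and 41.8% of the cells with 4 genes.

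**Figure D1:**
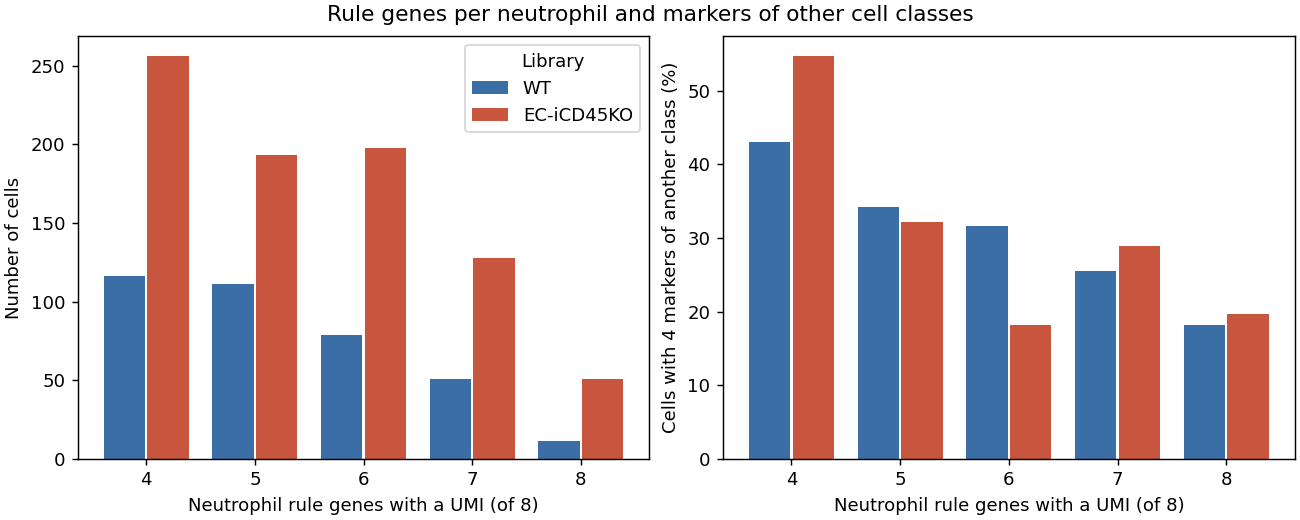
Number of neutrophils (left) and percentage of them with at least 4 markers of another cell class (right) by the number of rule genes with a UMI, in the WT (blue) and EC-iCD45KO (red) libraries. With exactly 4 rule genes, 43.1% of WT and 54.7% of EC-iCD45KO neutrophils also had 4 markers of another class, and with all 8 genes 18.2% and 19.6%.

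Neutrophil genes outside the rule were detected in these cells, and so was RNA of other cell types. Trem1, the activating receptor of myeloid cells, was at 519 CPM in WT and 457 CPM in EC-iCD45KO, Clec4d, a C-type lectin, at 1516 and 1623 CPM, and Stfa2l1, a stefin, at 151 and 217 CPM. Ly6g, the surface antigen by which mouse neutrophils are usually sorted, was nearly undetected, with 19 UMIs in 8 of 368 WT cells and 41 UMIs in 23 of 826 EC-iCD45KO cells. The defining genes of mast cells and basophils Cpa3, Mcpt4, Tpsb2, Ms4a2 and Fcer1a, and of eosinophils Epx, Ear1 and Ear6, had no UMI in the neutrophils of either library. The other members of those lists had few: the 8 mast cell and basophil markers summed to 7 UMIs in WT and 15 UMIs in EC-iCD45KO, and the 7 eosinophil markers to 14 and 41, of which Siglecf made up 4 and 32. At least 4 markers of either list were found in 0 neutrophils. At least 4 macrophage markers were found in 52 of 368 WT neutrophils (14.1%) and 205 of 826 in EC-iCD45KO (24.8%), and at least 4 B-cell markers in 45 (12.2%) and 7 (0.847%). Smooth muscle markers reached that number in 15 and 56 neutrophils, fibroblast markers in 21 and 74, T and NK-cell markers in 15 and 5, and endothelial markers in 6 and 26. Summed over all neutrophils, the 8 macrophage markers made up 2905 CPM in WT and 5135 CPM in EC-iCD45KO, the 8 smooth muscle markers 727 and 2729 CPM, and the 8 B-cell markers 1382 and 141 CPM, with every one of these genes detected in both libraries.

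Without any cell that had 4 or more markers of another class, 240 WT neutrophils (65.2%) and 541 EC-iCD45KO neutrophils (65.5%) were left, here called unmixed. In these, the summed macrophage markers were at 881 and 1000 CPM, the smooth muscle markers at 436 and 564 CPM, and the B-cell markers at 611 and 33.3 CPM. The main comparisons between libraries are therefore given for all neutrophils and for the unmixed ones. The neutrophils were shallow, with a median of 1389.5 UMIs in WT and 1660 in EC-iCD45KO, and the unmixed ones shallower still, at 1100 and 1520 UMIs. Their median share of mitochondrial UMIs was 1.37% in WT and 1.96% in EC-iCD45KO (unmixed 1.22% and 1.86%), and that of all kept cells was 1.90% and 2.93%; its part in the differences between libraries was not tested. The libraries shared 340 barcode sequences, none of which was a neutrophil in both.

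Several genes outside the rule set the neutrophils apart from all other kept cells of their library, as a description, because any gene can follow the genes that chose the cells. Acod1, the itaconate-producing enzyme, was at 1264 CPM in WT and 1358 CPM in EC-iCD45KO, against 7.52 and 17.4 CPM in all other cells. G0s2, a lipase inhibitor, was at 769 and 1052 CPM against 10.4 and 18.2 CPM, Hcar2, the niacin receptor, at 477 and 512 CPM against 4.10 and 10.98 CPM, and Slc7a11, the cystine transporter, at 1278 and 1470 CPM against 18.1 and 57.4 CPM. The stefin genes Stfa2l1 and Cstdc4, which encode small cysteine protease inhibitors, were respectively 351 and 242 times as high as in other WT cells and 162 and 148 times as high as in other EC-iCD45KO cells. Fpr1, the receptor for bacterial formyl peptides, was at 101 and 134 CPM, against 1.06 and 1.91 CPM in other cells.

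Cytokine transcripts were abundant in both libraries. Cxcl2, itself a CXCR2 ligand, was at 22764 CPM in WT and 23550 CPM in EC-iCD45KO neutrophils, and at 2779 and 2985 CPM in monocytes. Il1b was at 6404 and 5717 CPM in neutrophils, against 963 and 1381 CPM in monocytes and 279 and 478 CPM in macrophages. Ccl3 and Ccl4, inflammatory CC chemokines, were at 1926 and 3297 CPM in WT and at 2065 and 3680 CPM in EC-iCD45KO neutrophils. Monocytes, macrophages and the other classes here are cells with at least 4 of 8 markers of that class, fewer than 4 rule genes and fewer than 4 markers of any other class. After each cell was thinned at random to 500 UMIs, 78.0% of WT and 78.8% of EC-iCD45KO neutrophils kept a UMI of Il1b (91.6% and 93.7% unthinned), against 1.65% and 2.09% of B cells, whose median depths were 2014 and 2562 UMIs before thinning.

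**Figure D2:**
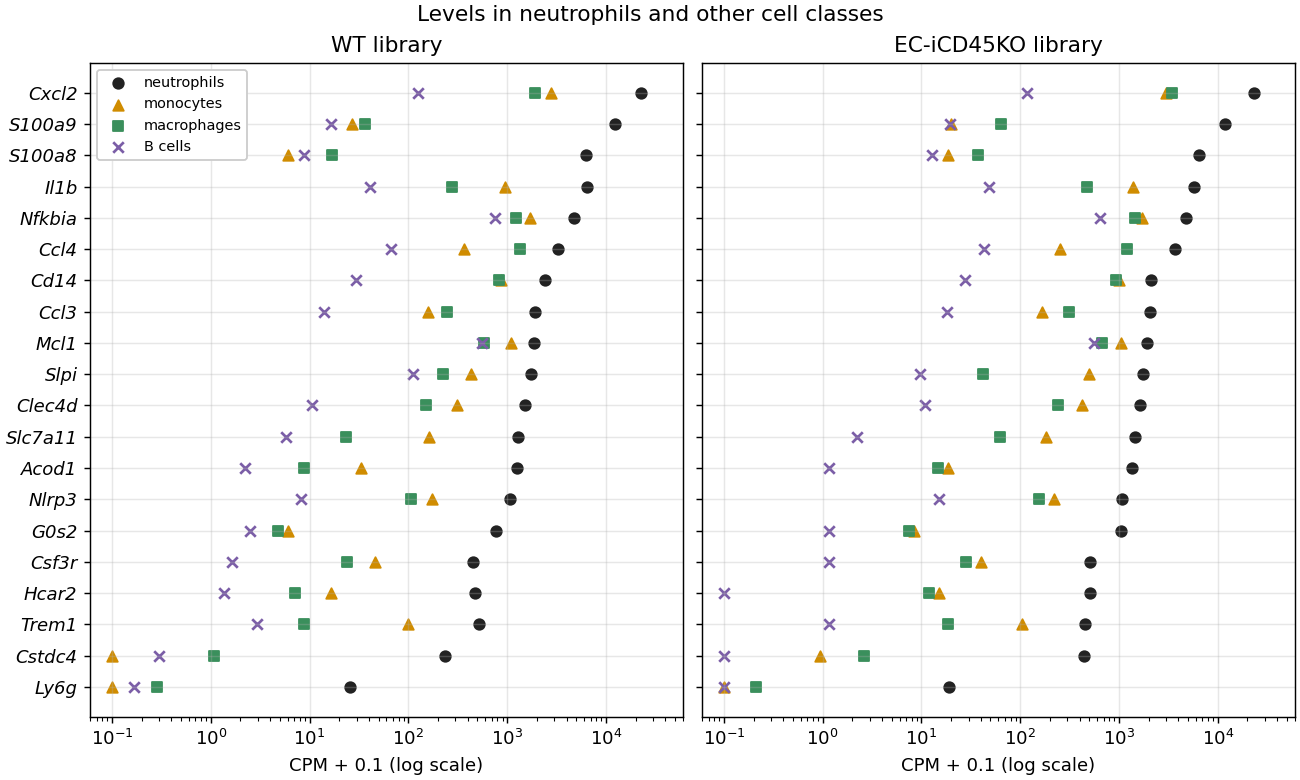
Levels of 20 genes in neutrophils, monocytes, macrophages and B cells of the WT (left) and EC-iCD45KO (right) libraries, as CPM plus 0.1 on a log axis, each point 1 sum over all cells of the class. Neutrophils lie to the right of the other 3 classes for every gene drawn, Ly6g included. The level of Ly6g was only 25.3 CPM in WT and 18.9 CPM in EC-iCD45KO. This order is only a description. For rule genes it follows from how the cells and the other classes were chosen. Genes picked for standing highest above other cells lie to the right by that choice, and any other gene can follow the rule genes.

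The neutrophils differed among themselves. Clustering on variable genes other than the rule genes gave 7 groups, described by the genes that lead each one, with no test of their sizes. Group 2, of 276 cells, had Ngp, Camp and Ltf among its 10 leading genes, but 1 WT cell held 308 of the 316 Ngp UMIs, all 134 of Camp and 84 of the 86 of Ltf. Without that cell the group was led by Cstdc5, Stfa2l1, Cstdc4, Wfdc21, Stfa1 and Mrgpra2b, of which Stfa2l1 had a UMI in 82 cells, Cstdc4 in 85 and Cstdc5 in 15. The whole group had 20005 CPM of S100a8 and 3515 CPM of Retnlg, and 97.1% of it was unmixed. Group 1, of 279 cells, was led by Hist1h4i and Csf1 and included Bcl2a1a, Osgin1 and Clec5a among its 10 leading genes, with 995 CPM of Mmp9 but 146 CPM of Retnlg; 95.3% of it was unmixed. Group 5, of 110 cells, was led by the interferon-induced genes Ifit1, Rsad2, Ifit3, Ifit3b, Gbp2b and Isg15, and 97.3% of it was unmixed. The other groups were led by genes of other cell types: group 3 (253 cells) by C1qc and C1qa of macrophages, group 4 (140 cells) by Cd79a and Bank1 of B cells, group 6 (99 cells) by Sfrp4, Mmp3 and Tagln of fibroblasts and smooth muscle, with 217 of 462 Sfrp4 UMIs in 1 cell, and group 7 (37 cells) by Adamts9 and Gpihbp1 of endothelium. Unmixed cells made up 29.6% of group 3, 34.3% of group 4, 7.07% of group 6 and 27.0% of group 7. The unmixed neutrophils therefore include cells of groups led by genes of other cell types. Cxcl2 was at 42676 CPM in group 1, 45785 CPM in group 2 and 54573 CPM in group 5, and between 5581 and 12074 CPM in groups 3, 4, 6 and 7. All 7 groups held neutrophils of both libraries, in different proportions. Of 368 WT neutrophils 120 were in group 4, 91 in group 5, 51 in group 2 and 43 in group 1. Groups 3, 6 and 7 held 40, 14 and 9 of them. Of 826 EC-iCD45KO neutrophils 236 were in group 1, 225 in group 2, 213 in group 3 and 85 in group 6. Groups 7, 4 and 5 held 28, 20 and 19 of them. A difference between libraries over all neutrophils therefore cannot be told apart from a different makeup of groups, and the genes that define the groups differ between the libraries too.

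Neutrophils made up 0.932% of the kept WT cells (0.839 to 1.03, exact Clopper-Pearson interval) and 2.85% of the kept EC-iCD45KO cells (2.66 to 3.05). The difference was 1.92 percentage points (1.71 to 2.14, Newcombe interval). The unmixed neutrophils were 0.608% of WT and 1.87% of EC-iCD45KO cells. Part of the denominator moved as well: B, T/NK and plasma cells were far more numerous in the WT library, and with these left out of both libraries the shares were 1.21% and 2.92%. Under a stricter filter of 500 genes and 5% mitochondrial UMIs the shares were 0.792% and 3.43%, and with 6 of the 8 genes required they were 0.357% and 1.30%. Fewer or more neutrophils in the tissue cannot be told apart from a different yield of digestion and CD31 enrichment in these libraries.

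Interferon-response genes were lower in EC-iCD45KO neutrophils than in WT neutrophils. All 18 listed genes were measured, and all were lower beyond their counting intervals, against 20.3% of the 3052 measured genes, those with a mean of at least 50 CPM. At least 2-fold lower were 15 of the 18, against 3.67% of all measured genes. The list had a median log2 ratio, EC-iCD45KO over WT, of -1.92 in all neutrophils and -2.37 in the unmixed ones, while the median over all measured genes was 0.03. Its summed level was 7405 CPM in WT, with an exact Poisson interval of 7212 to 7603. In EC-iCD45KO it was 1850 CPM, with an interval of 1793 to 1908, which is 4.00-fold lower. In the unmixed neutrophils it was 11785 and 2675 CPM. An interferon-high group of neutrophils was already visible in the earlier analysis of these libraries from which the genes were listed, so the list is a description of them. The 8 monocyte markers summed to 951 CPM in WT and 630 CPM in EC-iCD45KO neutrophils, and to 969 and 412 CPM in the unmixed ones; their part in these differences was not tested.

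The listed genes include antiviral effectors and signalling genes. Isg15 (chr4:156199424-156200818 on mm10, minus strand), a ubiquitin-like modifier, was at 2134 CPM in WT neutrophils and 413 CPM in EC-iCD45KO neutrophils. Its log2 ratio was -2.37, with an interval from -2.49 to -2.25. Rsad2, or viperin, was at 803 and 120 CPM, a log2 ratio of -2.74. The IFIT proteins bind viral RNA: Ifit1 was at 485 and 43.4 CPM, Ifit2 at 111 and 10.6 CPM, Ifit3 at 561 and 39.2 CPM, and Ifit3b at 239 and 14.3 CPM, with log2 ratios of -3.48, -3.38, -3.84 and -4.06. Ifit3 and Ifit3b are near-identical neighbours on chromosome 19, so counting could have split their reads, and their separate levels are uncertain. Among the signalling genes Irf7, the transcription factor that amplifies interferon production, was at 200 and 52.6 CPM (-1.93) and Usp18, which restrains the interferon receptor, at 135 and 19.8 CPM (-2.76). The smallest differences in the list over all neutrophils were those of Cxcl10, a CXCR3 ligand, at 185 and 149 CPM (-0.32, interval -0.61 to -0.02), of Slfn1 (-0.48) and of Oasl2 (-0.99). In the unmixed neutrophils Cxcl10 was at 273 and 117 CPM (-1.22, -1.64 to -0.80), Slfn1 at -0.34 and Oasl2 at -0.99. Slfn4, a schlafen family gene, was at 1034 and 286 CPM (-1.85).

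The counts were spread over many cells. Isg15 had a UMI in 227 of 368 WT neutrophils, with at most 40 in 1 cell, and in 276 of 826 EC-iCD45KO neutrophils, with at most 36. Ifit3 had a UMI in 119 WT neutrophils, at most 20 in 1 cell, and in 50 EC-iCD45KO neutrophils, at most 7.

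Interferon-stimulated genes are bound by ISGF3 and IRF factors at the interferon-stimulated response element. The 250 bases before the start site are shown for 5 listed genes that hold its core letters, from the RefSeq promoter table on GRCm38.p6. Capitals mark the motif searched, 2 copies of GAAA with 2 bases between them, read on either strand, with overlapping matches joined.
Isg15, chr4:156200819-156201068, minus strand: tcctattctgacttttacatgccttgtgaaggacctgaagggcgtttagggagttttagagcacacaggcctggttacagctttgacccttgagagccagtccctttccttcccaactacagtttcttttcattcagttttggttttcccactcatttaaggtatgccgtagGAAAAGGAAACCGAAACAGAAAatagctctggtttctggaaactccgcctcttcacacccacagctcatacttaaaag
Ifit1, chr19:34640639-34640888, plus strand: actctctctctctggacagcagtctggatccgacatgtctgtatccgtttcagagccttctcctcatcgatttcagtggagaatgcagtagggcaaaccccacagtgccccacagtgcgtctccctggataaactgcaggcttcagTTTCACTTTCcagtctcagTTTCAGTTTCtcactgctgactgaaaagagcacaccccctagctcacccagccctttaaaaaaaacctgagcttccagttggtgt
Ifit3, chr19:34583279-34583528, plus strand: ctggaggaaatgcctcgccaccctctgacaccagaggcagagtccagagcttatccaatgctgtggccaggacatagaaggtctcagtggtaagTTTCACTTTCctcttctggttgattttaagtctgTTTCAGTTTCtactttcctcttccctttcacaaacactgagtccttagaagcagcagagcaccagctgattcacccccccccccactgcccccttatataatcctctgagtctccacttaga
Ifit3b, chr19:34607707-34607956, plus strand: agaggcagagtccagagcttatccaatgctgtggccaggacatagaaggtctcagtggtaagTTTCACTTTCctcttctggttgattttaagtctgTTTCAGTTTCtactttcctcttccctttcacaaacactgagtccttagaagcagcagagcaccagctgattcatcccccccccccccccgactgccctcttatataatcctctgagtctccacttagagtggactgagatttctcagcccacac
Rsad2, chr12:26456453-26456702, minus strand: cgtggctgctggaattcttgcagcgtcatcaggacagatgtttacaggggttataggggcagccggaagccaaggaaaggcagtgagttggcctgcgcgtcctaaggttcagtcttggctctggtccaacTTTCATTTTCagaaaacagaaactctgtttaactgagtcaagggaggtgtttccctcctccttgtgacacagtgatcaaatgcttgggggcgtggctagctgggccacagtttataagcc
In Isg15 the 3 matches overlap and begin 78, 72 and 66 bases before the start site in a single run. Ifit1 has 2 matches, at -104 and -85, Ifit3 has 2, at -156 and -122, and Rsad2 has 1, at -120. The stretches of Ifit3 and Ifit3b share an identical run of 169 bases that holds both matches, at -188 and -154 in Ifit3b. Of the 15 listed genes with an entry in that table, 8 hold the motif in a window from 250 bases before to 50 after the start site (53.3%), against 1079 of all 27025 genes (3.99%); of 7 rule genes, 0 hold it. No match says only that these letters are not in this window, as for Irf7, Slfn4 and Oasl1.

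S100a9, shown as a gene of the rule, holds no match to that motif and supports nothing about it. It holds 1 match to TTGCNNAA, part of the C/EBP family's motif, which begins 236 bases before the start site and is in capitals here.
S100a9, chr3:90695722-90695971, minus strand: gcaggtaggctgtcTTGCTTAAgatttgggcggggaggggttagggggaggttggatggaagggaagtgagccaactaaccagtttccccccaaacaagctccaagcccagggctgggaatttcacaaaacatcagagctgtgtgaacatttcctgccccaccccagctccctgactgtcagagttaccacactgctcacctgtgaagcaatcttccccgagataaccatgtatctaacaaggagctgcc
The letters TTGCNNAA on either strand are in the window of 2 of 7 rule genes, S100a9 and Retnlg, and in 12.2% of all genes.

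**Figure D3:**
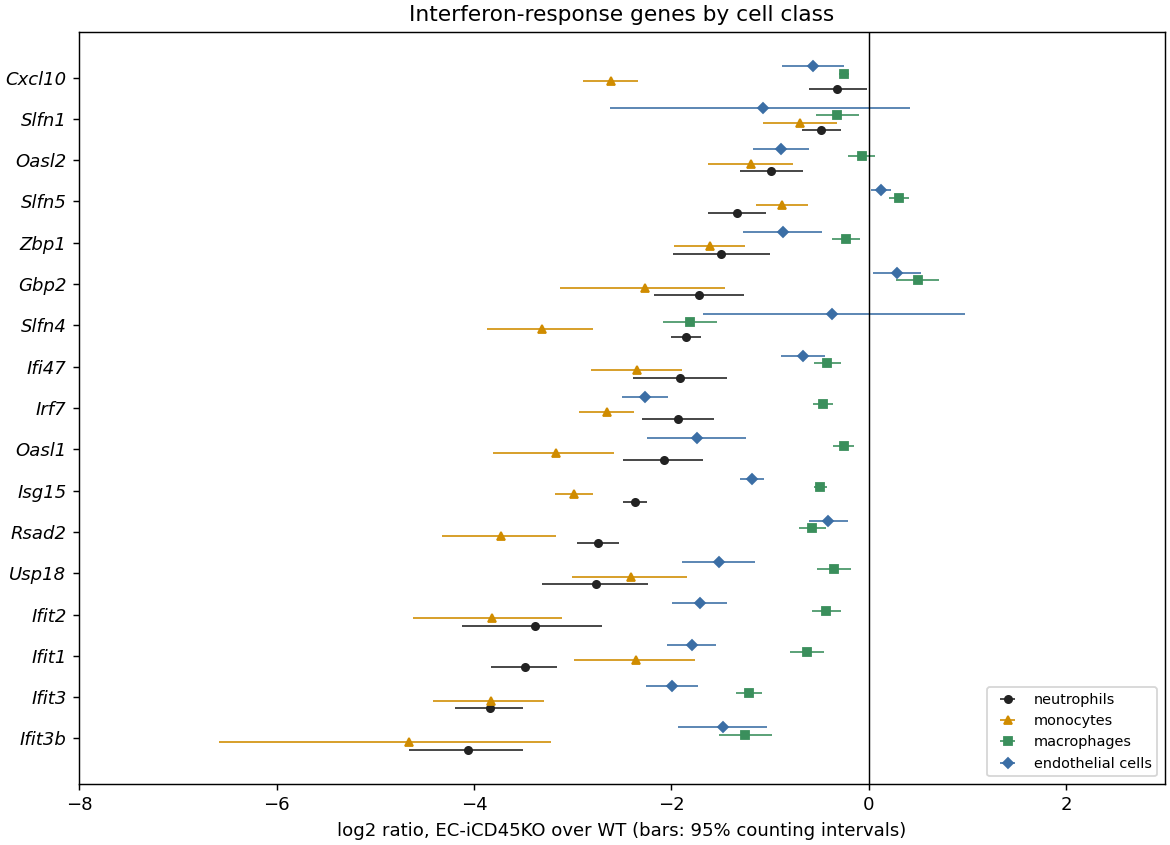
Log2 ratio, EC-iCD45KO over WT, of the interferon-response genes in neutrophils, monocytes, macrophages and endothelial cells, with 95% counting intervals as bars. The neutrophil points drawn all lie left of 0, from -0.32 for Cxcl10 to -4.06 for Ifit3b, and the macrophage points lie closer to 0 than the neutrophil points for every gene drawn.

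Per cell, the interferon genes were spread over more neutrophils in WT. After thinning to 500 UMIs, 130 of 368 WT neutrophils (35.3%, 30.4 to 40.4) had a UMI in at least 3 of the 18 genes, against 57 of 826 in EC-iCD45KO (6.90%, 5.27 to 8.85). In the same thinned cells, none of the 18 genes was detected in 25% of WT and 50.6% of EC-iCD45KO neutrophils, and the highest count of genes in 1 cell was 13 and 8. Among thinned B cells of the same libraries, which serve as a guide to free RNA, 1.10% and 0.299% had at least 3 of the genes. Without thinning the shares with at least 3 genes were 63.0% and 33.3% of neutrophils and 11.1% and 13.4% of B cells.

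The same list was lower in other cells of the EC-iCD45KO library too. In monocytes the summed level was 6707 CPM for WT and 1293 CPM for EC-iCD45KO, which is 5.19-fold lower (log2 ratio -2.37). Endothelial cells, the cells targeted by the deletion, had 2314 and 1336 CPM (-0.79), smooth muscle cells 743 and 419 CPM (-0.83), and macrophages 1201 and 943 CPM (-0.35). B cells had 654 and 625 CPM (-0.06, -0.19 to 0.06) and T/NK cells 1128 and 1135 CPM (0.01, -0.08 to 0.10), values that did not differ beyond counting error. Of the interferon genes, Ifnb1, a type I interferon, had 1 UMI in WT and 5 UMIs in EC-iCD45KO neutrophils, none of them in unmixed cells. Macrophages had 138 and 187 UMIs of it (8.42 and 5.10 CPM). Ifng had 498 UMIs in 2723 WT T/NK cells (74.2 CPM) and 103 UMIs in 327 EC-iCD45KO T/NK cells (98.7 CPM), and 62 and 15 UMIs in macrophages (3.78 and 0.41 CPM). The receptor genes Ifnar1 and Ifnar2 were at 57.3 and 176 CPM in WT neutrophils and at 55.8 and 221 CPM in EC-iCD45KO neutrophils. Ifngr1, a member of the receptor list, was at 180 and 227 CPM, and Ifngr2 at 78.7 and 119 CPM, WT first. In the unmixed neutrophils Ifngr1 was at 150 and 152 CPM and Ifngr2 at 65.8 and 128 CPM. Apart from Ifngr1, these interferon and receptor genes were added after the interferon list's values were seen.

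**Figure D4:**
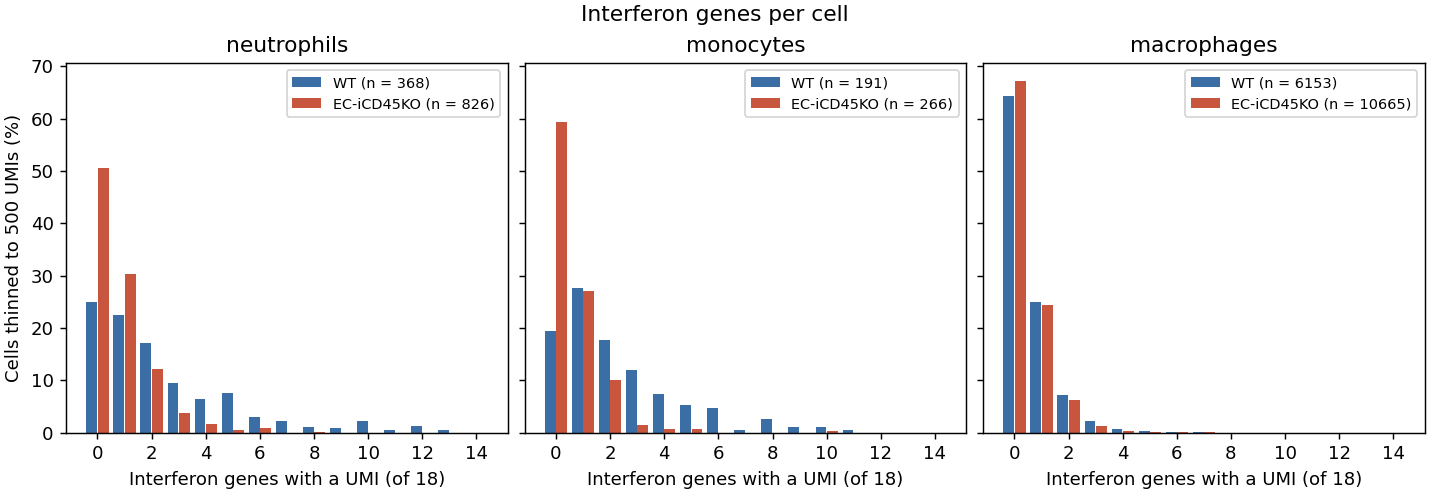
Percentage of neutrophils, monocytes and macrophages, each thinned to 500 UMIs, by the number of 18 interferon-response genes with a UMI, in WT (blue) and EC-iCD45KO (red). No interferon gene was seen in 25% of WT and 50.6% of EC-iCD45KO neutrophils, and in 64.3% and 67.3% of macrophages.

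The interferon-induced transmembrane genes, which block viral entry, were split, with 2 of 4 higher beyond counting intervals and 2 lower, against 20.8% and 20.3% of all measured genes, and a median of -0.20 (unmixed -0.37). Ifitm1 was higher in EC-iCD45KO, at 1486 against 777 CPM (log2 ratio 0.93), and Ifitm2 was at 2516 against 2122 CPM (0.25). Ifitm3 was lower, at 1225 against 1914 CPM (-0.64, unmixed -1.28), and Ifitm6 was at 73.8 against 135 CPM (-0.87).

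Gbp2b (chr3:142594847-142619179, plus strand), a guanylate-binding GTPase that is not in the list, had 156 UMIs in 69 WT neutrophils (208 CPM). The EC-iCD45KO neutrophils had 0 among their 2167815 UMIs. With a floor of 3 counts in place of 0 that is 150-fold lower, and the exact interval for 0 reaches up to 1.70 CPM. Other cells of the EC-iCD45KO library also had few or no UMIs of it: endothelial cells had 109 CPM in WT and 0 in EC-iCD45KO, monocytes 108 and 1.66 CPM, and macrophages 19.0 and 0.518 CPM. Its neighbour Gbp2, which is in the list, was at 119 and 36.0 CPM in neutrophils (-1.72).

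Several ratios of granule genes rested on 1 WT cell. Of 10 listed azurophil and immaturity genes 1, Chil3, reached the minimum level, at 81.4 and 39.2 CPM (-1.05, unmixed -2.75); 35 of its 61 WT UMIs lay in that cell, and without it WT was at 34.9 CPM, within counting error of EC-iCD45KO (0.17, -0.48 to 0.86). Of the azurophil granule genes themselves, Prtn3, proteinase 3, had 3 UMIs in WT and 20 UMIs in EC-iCD45KO neutrophils (4.00 and 9.23 CPM), within counting error of each other (1.21, -0.55 to 3.60). The others were at or near 0: Mpo, myeloperoxidase, had 1 UMI in WT and 0 in EC-iCD45KO, Elane, neutrophil elastase, 0 and 1, and Ctsg, cathepsin G, 0 and 0, where 3 UMIs would be 4.00 CPM in WT and 1.38 CPM in EC-iCD45KO. Of 14 specific granule genes 11 were measured, with a median log2 ratio of 0.00 (unmixed -0.18); 1 was higher and 4 were lower beyond counting intervals, against 20.8% and 20.3% of all measured genes, and 3 were at least 2-fold lower and none at least 2-fold higher, against 3.67% and 2.79% of all measured genes. Lcn2, lipocalin 2, was at 313 and 331 CPM, Pglyrp1, a peptidoglycan-binding protein, at 419 and 458 CPM, and Slpi, an elastase inhibitor, at 1731 and 1733 CPM, all within counting error. Lcn2 and Pglyrp1 were so only with that cell: without it WT was at 217 and 370 CPM, and the log2 ratios were 0.61 (0.36 to 0.86) and 0.31 (0.11 to 0.50). The 3 lower genes, Ngp, Camp and Ltf, had 311, 134 and 86 UMIs in WT and 11, 1 and 20 in EC-iCD45KO. The same WT cell held 308, 134 and 84 of those UMIs. It had 4148 UMIs, all 8 rule genes, 10 UMIs of Ly6g, 380 of S100a8 and none of Il1b or Cxcl2. Without it, WT neutrophils had 3, 0 and 2 UMIs of the 3 genes, so these ratios describe 1 cell.

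In the lists that follow, only genes that reached the minimum level are counted, and genes below it are left out. Receptors by which neutrophils find their targets differed little. Of the 15 measured chemotactic and inflammatory receptors, 8 were higher beyond counting intervals and 1 was lower, against 20.8% and 20.3% of all measured genes, and none was at least 2-fold apart. Their median was 0.25, and 0.11 in the unmixed neutrophils. Fpr2, a formyl peptide receptor, was at 50.7 CPM in WT and 86.7 CPM in EC-iCD45KO (0.78), C5ar1, the C5a receptor, at 451 and 515 CPM (0.19), and Ltb4r1, the leukotriene B4 receptor, at 124 and 160 CPM (0.37). Cd14, the lipopolysaccharide co-receptor, was the lower one, at 2431 and 2092 CPM (-0.22). Cxcr4, which retains and recalls neutrophils to the marrow, was at 88.0 and 103 CPM, within counting error (0.23, -0.18 to 0.64). Of the 10 adhesion genes, 5 were higher and 2 lower, against the same 20.8% and 20.3%, with a median of 0.13 (unmixed 0.19): Itgam, the integrin chain CD11b, was at 183 and 245 CPM (0.43).

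Among Fc and lectin receptors, 8 of 14 were higher and 1 lower, against 20.8% and 20.3% of all measured genes, and 2 were at least 2-fold higher, against 2.79%. Their median was 0.26, but 0.16 in the unmixed neutrophils, and 0.40 in macrophages. The summed macrophage markers moved with these receptor lists in all neutrophils (2905 and 5135 CPM); their part was not tested. The 2-fold genes were Fcgr2b, the inhibitory Fc receptor, at 77.4 and 163 CPM (1.07, unmixed 0.94), and Clec5a, a DAP12-coupled lectin, at 65.3 and 137 CPM (1.07, unmixed 1.02). The adaptor genes Fcer1g and Tyrobp were at 2384 and 2903 CPM in WT and 2937 and 3588 CPM in EC-iCD45KO (0.30 and 0.31). The 6 oxidase genes had a median of 0.09 (unmixed 0.13): Ncf1, the p47phox subunit, was at 107 and 173 CPM (0.70), and Cybb, the catalytic chain, at 133 and 136 CPM.

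Cytokine and chemokine genes differed little as a list, with a median of 0.12 over 15 measured genes (unmixed 0.14), 8 higher, 3 lower and 2 at least 2-fold higher; over all measured genes 20.8% were higher, 20.3% lower and 2.79% at least 2-fold higher. Cxcl2 (0.05), Ccl3 (0.10) and Ccl4 (0.16) were close between libraries, and Il1b was at -0.16. Tnf was at 317 CPM in WT and 487 CPM in EC-iCD45KO (0.62, unmixed 0.59). The 2-fold genes were Csf1, the macrophage growth factor, at 68.0 and 140 CPM (1.04, unmixed 1.36), and Ccl9, at 46.7 and 173 CPM (1.89, unmixed 0.81), a CCR1 ligand that macrophages also express and which was 1.04 higher in them. The genes listed for NF-kB, its targets, inhibitors and subunits, had a median of 0.03 (unmixed 0.11). Nfkbia, an inhibitor, was at 4758 and 4797 CPM, Nlrp3, the inflammasome sensor, at 1078 and 1065 CPM, and Rel, a subunit, at 336 and 223 CPM (-0.59).

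Lipid-handling genes had the highest median of the lists of 5 or more measured genes, 0.68 over 15 of 18 listed genes in all neutrophils and 0.40 in the unmixed ones, with 11 higher, none lower and 2 at least 2-fold higher, against 20.8%, 20.3% and 2.79% of all measured genes. The 2-fold genes were Spp1, osteopontin, at 1223 and 2818 CPM (1.20, unmixed 0.89), and Olr1, the oxidized LDL receptor LOX-1, at 48.0 and 113 CPM (1.24, unmixed 1.07). Abca1, the cholesterol exporter, was at 193 and 362 CPM (0.91, unmixed 1.19), and Plin2, a lipid droplet protein, at 340 and 572 CPM (0.75, unmixed 0.65). Fabp4 and Fabp5, fatty acid binding proteins, were at 0.66 and 0.70 in all neutrophils but -0.35 and -0.12 in the unmixed ones. Macrophages express most of these genes, and the neutrophils with 4 or more macrophage markers were 14.1% in WT and 24.8% in EC-iCD45KO; their part in the remaining differences was not tested.

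Ptprc (chr1:138062861-138175708, minus strand), the gene deleted in endothelium, was in neutrophils at 905 and 1627 CPM (0.85, 0.73 to 0.97), and in the unmixed ones at 1085 and 2723 CPM (1.33). After thinning, 32.9% of WT and 52.2% of EC-iCD45KO neutrophils had a UMI of Ptprc, and 70.9% and 80.9% without thinning. In other classes it went both ways: it was lower in macrophages, at 493 and 276 CPM (-0.84), and higher in B cells, at 739 and 1235 CPM. The 13 measured genes of CD45, Src-family and inhibitory signalling had a median of -0.07, but 0.32 in the unmixed neutrophils, with 3 higher and 5 lower, against 20.8% and 20.3% of all measured genes. Fyn, a Src-family kinase, was at 124 and 79.3 CPM (-0.64), Lyn, its relative in myeloid cells, at 689 and 620 CPM (-0.15), and Ptprj, another receptor phosphatase, at 239 and 321 CPM (0.43).

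The survival genes had a median of 0.22 over 12 measured genes, and 0.38 in the unmixed neutrophils, with 6 higher and 2 lower against 20.8% and 20.3% of all measured genes. Mcl1, on which neutrophil survival depends, was at 1858 and 1942 CPM, within counting error. Bcl2a1a was at 48.0 and 109 CPM (1.18), Bcl2a1b at 421 and 548 CPM (0.38) and Bcl2a1d at 73.3 and 120 CPM (0.71), though these are near-identical copies between which counting could have split reads. The hypoxia and glycolysis genes (0.11 over 15), the transcription factors (0.02 over 12) and the early response and heat shock genes (-0.03 over 12) had medians close to that of all genes, 0.03. In the unmixed neutrophils these medians were 0.14, 0.28 and 0.05, against 0.0050 over all measured genes. Of 10 listed genes of extracellular traps and eicosanoid synthesis 3 were measured (median 0.47, unmixed 0.16), and of 6 stefin genes in the matrices 2 were (Stfa2l1 at 0.53 and Cstb at 0.97). Among the transcription factors and early response genes, Mxd1, a MYC antagonist of maturing granulocytes, was at 839 and 603 CPM (-0.48), and Hspa1a, an inducible chaperone, at 45.3 and 92.3 CPM (1.02).

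**Figure D5:**
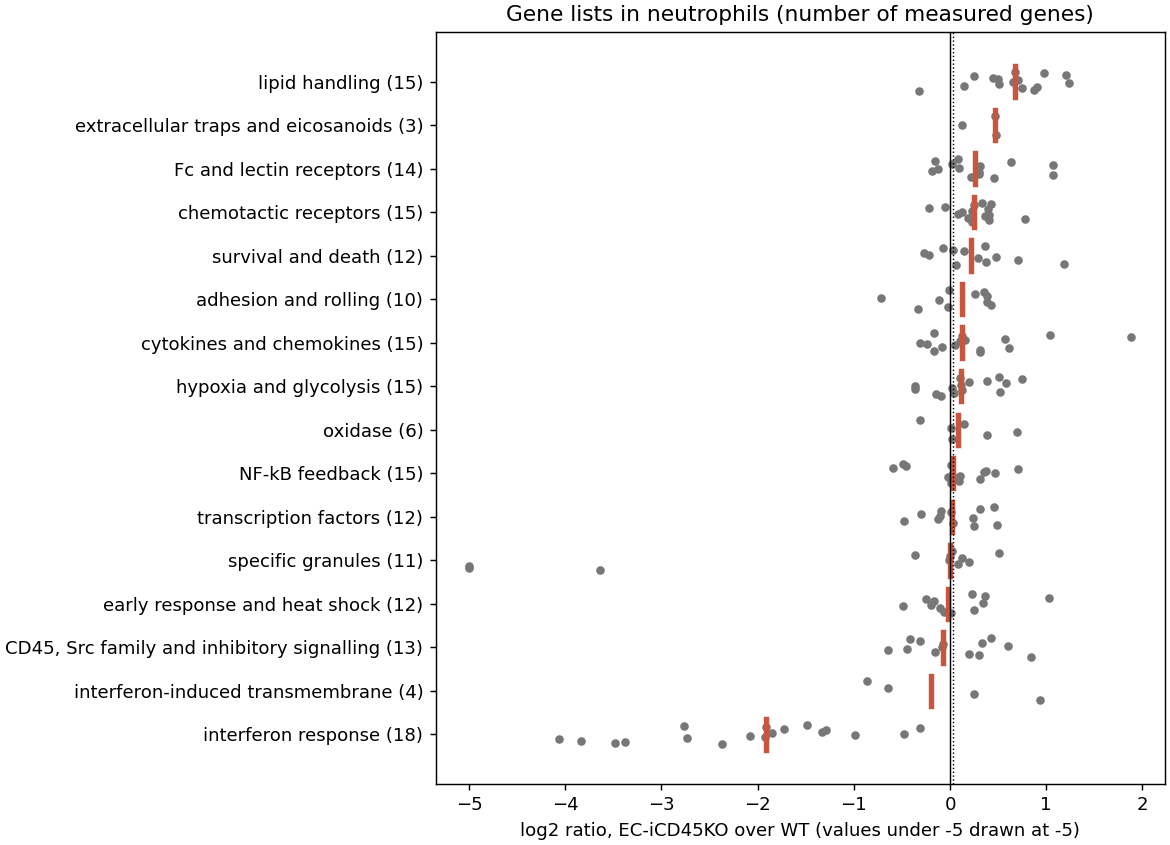
Log2 ratio, EC-iCD45KO over WT, of each measured gene (grey points) in 16 lists with at least 3 measured genes, with the median of each list in red, 0 as a solid line and the median of all measured genes, 0.03, as a dotted line. The interferon-response list, with a median of -1.92, lies apart from the others, whose medians run from -0.20 to 0.68.

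Among all 3052 measured genes, 85 were at least 2-fold higher in EC-iCD45KO (2.79%) and 112 at least 2-fold lower (3.67%), together 6.45%. Most of the 10 largest ratios belonged to genes of other cells. Sfrp4, a secreted WNT antagonist of fibroblasts, had 9 UMIs in WT and 506 in EC-iCD45KO (log2 ratio 4.28), of which 415 lay in 2 cells, and 0.38 in the unmixed cells. Ccl7, Saa3, Ccl12 and Pf4, which macrophages and stromal cells express, were between 2.30 and 3.12, and the contractile genes Tpm2, Myh11 and Tagln between 2.04 and 2.46; unmixed values ran from 0.31 to 1.72 over these 7 genes. Gdpd3, a lysophospholipase D, was at 13.3 and 171 CPM (3.68, unmixed 4.43), and the non-coding Gm34084 at 12.0 and 114 CPM (3.25, unmixed 2.99). Both were also higher in EC-iCD45KO macrophages (3.17 and 4.28), and Gdpd3 was at 12.98 and 265 CPM in endothelial cells. Beside Gbp2b, Camp and Ngp, the smallest ratios were those of the immunoglobulin and B-cell genes Ighg2c, Jchain, Iglc2, Ms4a1, Igkc and Cd79a, from -6.89 to -4.36, and of Ibsp, a matrix sialoprotein (-4.32). In macrophages these 7 genes were at -4.09 or below as well.

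Genes that attract or hold neutrophils were read in the cells around them. Levels went both ways between libraries. Cxcl2, whose level in neutrophils was close between libraries, was at 1922 and 3431 CPM in macrophages and at 289 and 622 CPM in fibroblasts. In smooth muscle cells it was at 428 and 1123 CPM and in endothelial cells at 109.6 and 173 CPM. B cells, the guide to free RNA, had 124 and 117 CPM of it, and T/NK cells 120 and 185 CPM. The part of free RNA in these levels was not tested. Cxcl1, another CXCR2 ligand, was at 59.9 CPM in WT and 119 CPM in EC-iCD45KO endothelial cells, at 171 and 285 CPM in fibroblasts, at 111 and 298 CPM in macrophages, and at 156 and 412 CPM in the neutrophils, but at 109 and 98.1 CPM in monocytes. Cxcl3, of the same family, was at 645 and 545 CPM in neutrophils, at 148 and 31.6 CPM in monocytes and at 5.12 and 38.5 CPM in macrophages. Csf3, which encodes G-CSF, was at 16.2 and 74.98 CPM in endothelial cells. Selp and Sele, the endothelial selectins on which neutrophils roll, were at 229 and 44.4 CPM in WT and 380 and 80.8 CPM in EC-iCD45KO endothelial cells. Icam1, the ligand of the neutrophil integrins, was at 162 and 130.5 CPM in the same cells. Cxcl12, the ligand of CXCR4, was at 969 and 1400 CPM in fibroblasts and 483 and 665 CPM in endothelial cells, but at 200.2 and 135 CPM in smooth muscle cells and 45.8 and 31.6 CPM in macrophages. Il17a, which induces CXCR2 ligands and G-CSF, was at 41.2 and 117 CPM in T/NK cells, from 277 UMIs in 2723 WT cells and 122 UMIs in 327 EC-iCD45KO cells.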

How the data were processed

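Single-cell RNA of aortic cells was read from 1 library per group. The deposited gene-by-barcode counts are UMI counts from Cell Ranger 7.1.0 on mm10, per the submitters' processing notes; the annotation and any filter the authors applied to barcodes are not given in the sources used here, and every deposited barcode had at least 500 UMIs. The libraries held 92058043 UMIs (WT) and 88967918 UMIs (EC-iCD45KO) in 39849 and 30278 barcodes, of which 346 and 1318 failed the cell filter. Counts of the neutrophils were summed per library and divided by their total of 749869 or 2167815 UMIs to give CPM, so 3 counts are 4.00 or 1.38 CPM.

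Log2 ratios carry conditional binomial intervals, levels exact Poisson intervals, differences of shares Newcombe intervals and shares Clopper-Pearson intervals, all at 95% and for counting error only. With 1 library per group no test was possible and no count model was fitted. A gene counted as measured where its mean over both libraries reached 50 CPM. Shares of cells that hold a UMI of a gene were read from cells randomly thinned to 500 UMIs. The 7 groups of neutrophils came from Leiden clustering (scanpy 1.11.5, leidenalg 0.10.2) on variable genes without the rule genes. Scrublet's own threshold marked 2 and 0 cells, so it has not worked here and removed none.

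The members and the gene lists were chosen with earlier results of these data known. Named genes are members of 18 gene lists, of the marker lists or of the ligand list, or stand among the 10 largest and 10 smallest ratios. The 20 genes highest above other cells and the 10 leading genes of each group of neutrophils could be named too. Genes outside this rule are named as added, and some list members are not reported singly here. Alternatives covered the number of rule genes, the cell filter, doublet scores, markers of other classes, scaling (edgeR 4.0.16 TMM factors, 1.02 and 0.976), cell weights and minimum level. The scripts were tested on simulated data. Python 3.11.15, numpy 2.4.6 and scipy 1.17.1 were used. Gene positions are from GENCODE on mm10 and promoter sequences from RefSeq on GRCm38.p6.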

Additional observations from a re-analysis of the deposited data

Results flagged for a closer look

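Among the barcodes outside the cell filter, which no comparison used, 15 of 1318 in the EC-iCD45KO library had a UMI in at least 4 of the 8 rule genes (1.14%, exact interval 0.638 to 1.87), 11 of them with over 10% mitochondrial UMIs and 4 with under 300 genes. In the WT library 0 of 346 did, which allows a share of up to 0.867% by a floor of 3 counts and up to 1.06% by the exact interval.

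For 19 of 186 measured genes of the lists, the ratio EC-iCD45KO over WT lay beyond its counting interval in opposite directions in neutrophils and macrophages, and for 5 of these both log2 ratios were at least 0.4 in size. The same count was not made over all measured genes, so it cannot be told whether 19 of 186 is unusual. With 1 library per group the difference was not tested. Ptprc had a log2 ratio of 0.85 in neutrophils and -0.84 in macrophages. Gbp2 was at -1.72 and 0.50, Mxd1 at -0.48 and 0.42, and Chil3, a chitinase-like protein, at -1.05 and 1.48. Ltf was at -3.64 and 1.49. In neutrophils 1 WT cell held 35 of the 61 Chil3 UMIs and 84 of the 86 Ltf UMIs, and without it the neutrophil ratios were 0.17 (-0.48 to 0.86) and 1.78 (-0.26 to 4.92), no longer opposite to macrophages.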

How the results depend on the processing

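No paired analysis was possible because 1 library stands for each group. The difference in the share of neutrophils, 1.92 percentage points, was 3.28 with at least 3 rule genes, 1.33 with 5, 0.945 with 6, 2.64 with 500 genes and 5% mitochondrial UMIs, 1.70 without B, T/NK and plasma cells in the total, and 1.26 for unmixed neutrophils. The interferon-response median, -1.92, was -2.37 in unmixed neutrophils, -2.55 with a minimum of 200 CPM and -2.46 when 4 rule genes were required after thinning. The difference in the share of neutrophils with at least 3 interferon genes, -28.43 points, was -33.89 after thinning to 1000 UMIs and -34.78 in unmixed neutrophils. The cytokine median, 0.12, was 0.24 under the stricter cell filter, and that of the interferon-induced transmembrane genes turned from -0.20 to 0.25 with a minimum of 200 CPM, which left fewer genes. Genes at least 2-fold higher numbered 2504 and lower 2168 with no minimum and 0.5 CPM added, and 22 and 20 with a minimum of 200 CPM.

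Of 1474 values of single-gene ratios under the alternatives, 15 reversed the sign of a main ratio that lay beyond its counting interval. None of these was among 187 values of 14 interferon genes. Main ratios within counting error were not counted as reversed, and genes under the minimum level in an alternative gave no value there. In unmixed neutrophils C1qc was at -0.29, Fabp4 at -0.35, Fabp5 at -0.12 and Mmp3 at -0.84. With 4 rule genes required after thinning, C1qc was at -0.17, Ccl3 at -0.18, Ccl4 at -0.29, Fabp5 at -0.053 and Lyn at 0.061; with 6 rule genes Lyn was at 0.051. S100a9 was at 0.19 under the stricter cell filter, 0.010 with TMM scaling and 0.038 without the WT cell rich in Ngp. Ccl4 was at -0.0085 as a mean over cells, and Cxcl2 at -0.0028 with mitochondrial, ribosomal, haemoglobin and immunoglobulin genes left out of the total. The causes were not tested. Some alternatives were chosen after seeing the data: 4 rule genes after thinning, and leaving out the Ngp-rich WT cell or the deepest cells. So were those for the share of neutrophils with at least 3 interferon genes. Depth limits what single cells show: the median neutrophil held 1389.5 UMIs in WT and 1660 in EC-iCD45KO.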
